A study of Homo sapiens with 10 samples.

Results

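S4 is a state that the authors' cell table gives to 1805 cells of the ovarian carcinoma line Kuramochi grown in olaparib. Members were taken by that label, and their counts were read from the matrix by cell name. They are 1805 of the 8240 cells the table lists and of the 18209 cells in the matrix. By library, they are 196 cells at 10 µM (T10), 74 at 20 µM (T20), 697 at 40 µM (T40) and 838 at 80 µM (T80).

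The study took Kuramochi, an epithelial, BRCA2-mutant line per the labels, through 1 escalation of olaparib and profiled each population by inDrop, a droplet method that counts molecular identifiers (UMIs). There is 1 library per dose, and each treated population was grown in its dose until confluent. S4 cells are set against the other listed states of the same libraries, S2 (688 cells at 10 µM and 417 at 20 µM) and S3 (146, 149, 221 and 72 cells at 10, 20, 40 and 80 µM). They are also set against S5 (1348 cells at 160 µM and 560 at 320 µM), S1 (2032 cells at 1 to 5 µM), S2 of 2.5 and 5 µM (134 and 215 cells) and the 453 listed untreated cells, C. All groups come from this BRCA2-mutant line, which is the untreated start of the escalation. Whether the mutation was unchanged in the treated populations was not examined. The authors' list of cells is labelled g1, and the sources used here do not otherwise say how cells were listed or states assigned. If g1 stands for the G1 phase, the G2/M levels of listed against unlisted cells were set by that choice. A state is a class made from these same cells, so its differences from other states are described and not tested, and with 1 library per dose there is no test between doses either.

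Olaparib blocks the catalytic site of PARP enzymes and traps them on DNA, which kills cells that cannot repair the damage by homologous recombination, and BRCA2 is a central protein of that repair. Serous ovarian carcinoma cells carry epithelial keratins and claudins and Müllerian transcription factors such as PAX8. Carcinoma cells can also take on smooth-muscle actin, matrix and adhesion genes, many of them known targets of TGF-beta, and such mesenchymal programs are common in cells that survive drugs.

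The share of S4 among listed cells was 19.0% at T10 (exact Clopper-Pearson 95% interval 16.7 to 21.6), 11.6% at T20 (9.19 to 14.3), 75.9% at T40 (73.0 to 78.7) and 92.1% at T80 (90.1 to 93.8). S4 was thus a minority beside S2 at the lower pair of doses and the majority at the upper pair, and no cell of the 6 other libraries was given S4. Of all cells of the library, listed or not, S4 took 9.87%, 5.06%, 33.6% and 37.0%. Intervals here and below cover counting error only.

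**Figure D1:**
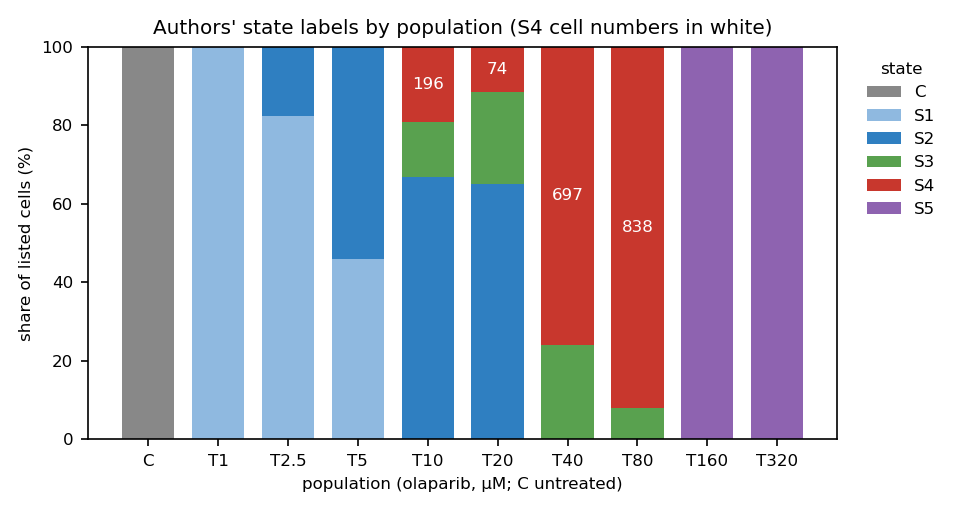
Share of listed cells (percent, vertical axis) given to each state in each of the 10 populations (horizontal axis, dose in µM, C untreated), with S4 in red and its cell number in white. S4 appears at 10 to 80 µM with 196, 74, 697 and 838 cells and is the most common label only at 40 and 80 µM.

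S4 cells held 452679, 247601, 1908480 and 2948764 UMIs in T10, T20, T40 and T80, with a median of 2170.5, 3094, 2674 and 3364 UMIs per cell, against 1979.5, 3470, 2309 and 3277.5 in the other listed cells of the same libraries. The median mitochondrial share was lower in S4 in all 4 libraries, at 5.79%, 5.35%, 7.90% and 8.84%, against 8.65%, 7.92%, 11.1% and 12.3%. Of 17195 distinct barcodes, 970 occur in more than 1 library. Among S4 cells, 179 share their barcode with a cell of another library, and 11 barcodes are S4 in more than 1 library. Summed G2/M transcripts were 711, 489, 534 and 504 CPM (UMIs per 1000000) in S4, against 476 to 768 CPM in S2 and S3 of these libraries and 3587 to 5846 CPM in their unlisted cells.

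Genes that stand for S4 include surface adhesion, contractile and hyaluronan-binding proteins. For 3 of them that differ in when they were high, the 200 bases before the annotated start are shown, since VCAM1 was at most 14.6 CPM in the other listed states, ACTA2 was also high in S2 of low doses, and CD44 was also high in S5. VCAM1 (chr1:100719542-100719741, plus strand), ACTA2 (chr10:88952774-88952973, minus strand, the second of 2 windows the table lists) and CD44 (chr11:35138971-35139170, plus strand) are from RefSeq, build GRCh38.p14, written 5′ to 3′.
VCAM1: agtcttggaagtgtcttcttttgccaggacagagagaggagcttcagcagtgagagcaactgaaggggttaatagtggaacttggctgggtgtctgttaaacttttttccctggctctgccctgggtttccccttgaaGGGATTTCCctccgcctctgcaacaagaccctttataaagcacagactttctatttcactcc
ACTA2: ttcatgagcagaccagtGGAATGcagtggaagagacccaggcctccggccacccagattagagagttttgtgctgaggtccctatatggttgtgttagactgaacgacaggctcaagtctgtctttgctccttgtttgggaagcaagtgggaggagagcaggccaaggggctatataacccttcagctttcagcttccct
CD44: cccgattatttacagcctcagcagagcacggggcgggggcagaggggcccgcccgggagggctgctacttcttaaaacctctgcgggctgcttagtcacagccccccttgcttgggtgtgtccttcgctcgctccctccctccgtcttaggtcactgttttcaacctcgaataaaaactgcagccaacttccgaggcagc
Capitals mark letters that match a searched motif, the NF-kB motif GGGNTTTCC in VCAM1 and the TEAD motif GGAATG in ACTA2, while CD44 held none. Motifs were searched on both strands as AP-1 (TGANTCA), TEAD (GGAATG), NF-kB (GGGNTTTCC) and the CArG box of serum response factor, with overlaps allowed. Of all 35116 windows, 5.38% held the AP-1, 9.51% the TEAD, 1.39% the NF-kB and 0.982% the CArG letters. The genes higher in S4 in every library, described below, had 62 windows from 30 of 38 genes, and 4.84%, 14.5%, 1.61% and 3.23% of them held those letters. These shares are 3, 9, 1 and 2 windows, and a gene can have several windows. The genes lower in S4 in every library had 54 windows from 36 of 47 genes, with shares of 5.56%, 5.56%, 0% and 1.85%. A match is a run of letters and says nothing of binding. Only exact matches were marked, so an unmarked stretch does not show that a site of any of these factors is absent.

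The given markers were checked first. CD44, a hyaluronan receptor often used to mark stem-like carcinoma cells, had 53.02, 145, 416 and 183 CPM in S4 cells of T10, T20, T40 and T80, against 7.97, 26.3, 107 and 20.2 CPM in the other listed cells. PDE1C, a calmodulin-regulated phosphodiesterase that breaks down cyclic nucleotides, had 148, 162, 159 and 206 CPM in S4, against 31.9, 28.9, 32.6 and 24.2. Both were at least 3.90-fold higher in S4, and the S4 sum was above the sum of the other cells in each library. PRKCB, a protein kinase C isoform, lay between the other states, with 30.9, 32.3, 104 and 120 CPM in S4, against 273, 136, 233 and 420 CPM in S3 and 14.6 and 8.18 CPM in S2 at T10 and T20. FOSB, an AP-1 transcription factor subunit induced within minutes of stimulation, had 265, 105, 1142 and 358 CPM in S4, against 255, 141, 461 and 178 CPM in the other cells. The ratio was 1.04 at T10 (0.842 to 1.27), 0.746 at T20 (0.479 to 1.12), 2.47 at T40 (2.17 to 2.83) and 2.02 at T80 (1.49 to 2.79). CD44 and PDE1C thus set S4 off from its neighbours in every library, PRKCB stood highest in S3, and FOSB was higher in S4 at T40 and T80 but not at T10 or T20.

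**Figure D2:**
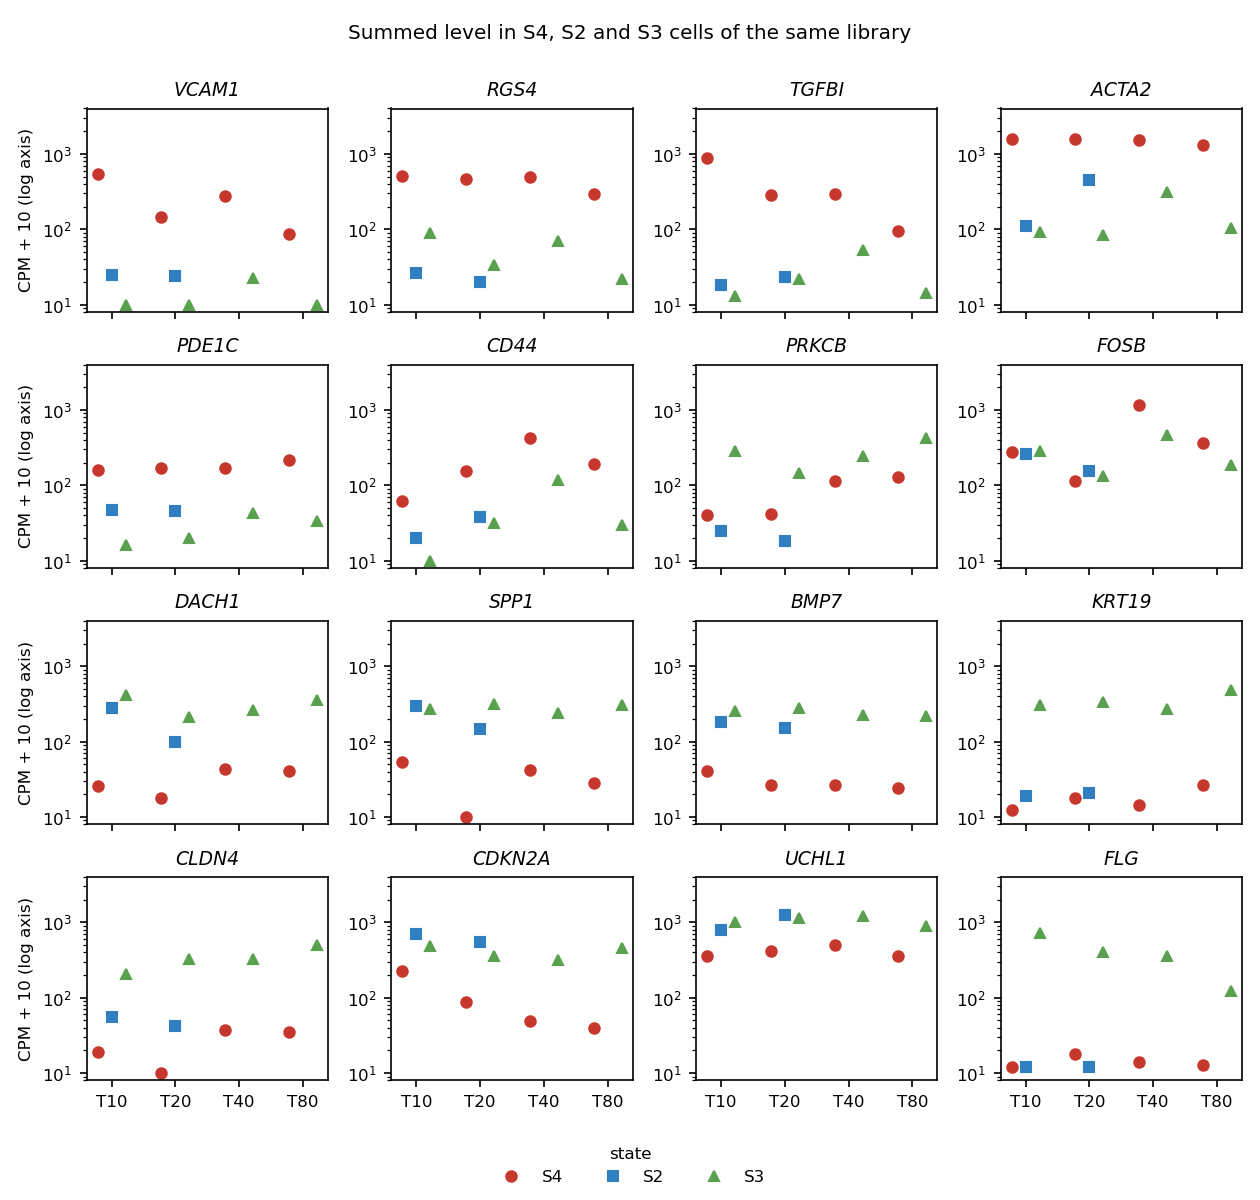
Summed level of 16 genes (CPM + 10, log axis) in S4, S2 and S3 cells of each library from T10 to T80, with 1 point per state and library. VCAM1, RGS4, TGFBI, ACTA2, PDE1C and CD44 are highest in S4 in every library, PRKCB is highest in S3, FOSB overlaps at T10 and T20, and KRT19 and FLG are low in both S4 and S2.

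Within each library, S4 was compared with its other listed cells on the log2(CPM + 10) scale, over 3085 genes with at least 100 UMIs in listed cells and at least 50 CPM on 1 side in every library. At least 2-fold higher in S4 were 113 genes at T10 (3.66%), 131 at T20 (4.25%), 121 at T40 (3.92%) and 184 at T80 (5.96%). At least 2-fold lower were 114 (3.7%), 157 (5.09%), 104 (3.37%) and 180 (5.83%). In all 4 libraries, 38 genes were higher (1.23%) and 47 lower (1.52%). The other side is S2 and S3 at T10 and T20 and S3 alone at T40 and T80. Of the 38, 33 were also at least 2-fold above S2 alone and 35 above S3 alone, 30 of them above both; of the 47, 32 were below S2 alone and 42 below S3 alone, 27 of them below both. The genes next to the limit were LGALS1 and MYADM inside it at 1.01 and 1.00 and BNC2 and TSEN34 outside at 0.99 and 0.99, and, among lower genes, APOE and TFAP2A inside at -1.03 and -1.01 and TSC2 and EZR outside at -0.99 and -0.96 (smallest log2 difference over the libraries).

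The higher set included VCAM1, RGS4 and NT5E. VCAM1, an adhesion receptor that binds integrins of leukocytes, had 524, 137, 265 and 77.0 CPM in S4, against 11.96, 10.6, 12.7 and 0 CPM in the other listed cells. It was 43.8-fold (28.0 to 72.0), 12.9-fold (7.28 to 23.4) and 20.9-fold (10.1 to 52.3) higher at T10, T20 and T40, and at least 6.36-fold higher at T80, where 0 UMIs in the other cells were set to a floor of 3 counts. S4 was the higher side in each library. A VCAM1 UMI was found in 48.5%, 25.7%, 29.1% and 10.3% of S4 cells, against 0 of 146, 0 of 149, 3.17% and 0 of 72 S3 cells at T10, T20, T40 and T80. With every cell thinned to 1000 UMIs, the S4 shares were 31.6%, 9.72%, 18.5% and 5.02%, and the S3 shares 0%, 0%, 1.47% and 0%. The thinned S2 shares were 0.816% at T10 and 1.28% at T20. The VCAM1 share was thus higher in S4 than in S3 of each library at equal depth, but at T80 the intervals overlapped (3.64 to 6.73 in S4, 0 to 5.13 in S3). The unthinned medians were 2170.5, 3094, 2674 and 3364 UMIs in S4 and 2099, 3359, 2309 and 3277.5 in S3. RGS4, which speeds the switching off of G-protein signals, had 504, 448, 478 and 281 CPM in S4, against 27.3, 13.7, 59.7 and 12.1. NT5E, the ecto-enzyme CD73 that makes adenosine, had 86.2, 214, 225 and 188 CPM in S4, against 22.2, 28.9, 41.6 and 20.2. S4 was above the other cells of its library for both. PCDH18, a protocadherin, DEPTOR, an inhibitor of mTOR, PPP1R3C, a glycogen-targeting phosphatase subunit, and ADAMTS5, a protease of proteoglycans, were higher by 1.52 or more on the log2 scale in each library.

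The higher set also held ACTA2 and TAGLN, which code for contractile proteins, and TGFBI and TGFB2. ACTA2, smooth-muscle actin, had 1582, 1555, 1509 and 1287 CPM in S4, against 96.2, 349, 302 and 92.8 CPM in the other cells (16.4-, 4.46-, 4.99- and 13.9-fold). It was seen in 60.7%, 60.8%, 67.9% and 59.2% of S4 cells. With every cell thinned to 1000 UMIs, the shares were 47.1% (39.5 to 54.8), 52.8% (40.7 to 64.7), 51.4% (47.6 to 55.3) and 40.3% (37.0 to 43.7) at T10, T20, T40 and T80. The T80 share was below the T40 share, but each dose is 1 library, so these intervals leave out differences between libraries. TAGLN, the actin-binding protein transgelin, had 2218, 2274, 2664 and 1342 CPM in S4, against 436, 715, 977 and 363. TGFBI, a secreted adhesion protein and known TGF-beta target, had 884, 279, 279 and 84.1 CPM in S4, against 7.40, 12.7, 43.4 and 4.03 CPM, with 1 UMI in the other cells of T80. TGFB2, a TGF-beta ligand, had 172, 129, 111 and 61.0 CPM in S4, against 30.8, 24.8, 25.3 and 4.03, the last again from 1 UMI. SMAD3, which carries the TGF-beta signal to the nucleus, and TGFB1I1, an adaptor of focal adhesions, were among the 38 as well. NNMT, which methylates nicotinamide, which PARP enzymes release when they use NAD, had 265, 190, 137 and 76.6 CPM in S4, against 35.9, 34.5, 34.4 and 4.03. PRSS23 and FHL1, a secreted protease and a LIM-domain protein, complete the named genes of this set. PCDHB16 also passed, but 35.1% of the 31-base words at its transcript end occur in other genes, so its values are uncertain.

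The lower set included DACH1, SPP1 and BMP7. DACH1, a transcriptional co-repressor, had 15.5, 8.08, 33.0 and 30.2 CPM in S4, against 290, 117, 250 and 347 CPM (18.8-, 14.4-, 7.57- and 11.5-fold lower). SPP1, secreted osteopontin, had 44.2, 0, 32.5 and 18.0 CPM in S4, against 284, 180, 232 and 294, and was at least 14.8-fold lower at T20. BMP7, a growth factor of the BMP family, had 30.9, 16.2, 16.8 and 14.6 CPM in S4, against 184, 176, 215 and 210. These 3 genes were below both S2 and S3 in every library. REC8, a cohesin subunit of meiosis, had 11.05, 12.1, 19.4 and 15.3 CPM in S4, against 153, 141, 179 and 109. CLDN4, a tight-junction claudin, had 8.84, 0, 27.2 and 25.1 CPM in S4, against 72.3, 106, 313 and 492. FYN, a kinase of the SRC family, had 26.5, 12.1, 32.5 and 34.6 CPM in S4, against 142, 79.0, 255 and 476. GFOD1 and PRTG were lower by at least 1.78 in each library. FLG, the filaggrin gene of epidermis, and KLK6, a secreted protease, were at least 2-fold lower in each library against S3 but not against S2. FLG had 2.21, 8.08, 4.19 and 2.71 CPM in S4, and its difference from S2 alone reached 0.59, toward higher in S4, at T20.

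Lists of known genes were counted by the same rule, against 1.23% higher and 1.52% lower over all 3085 genes. Of 8 measured epithelial genes, 5 were lower and 0 higher in all 4 libraries, with a median difference of -2.06, against -0.01 over all 3085 genes. Summed over the list, S4 had 1235, 1405, 732 and 511 CPM, against 4888, 4461, 3369 and 3198 CPM in S3 of the same libraries, 1439 and 1267 CPM in S2 of T10 and T20, and 613 and 739 CPM in S5. The difference in the sum was thus from S3, while S2 of the same libraries and S5 had sums near those of S4. Beside CLDN4, they include CLDN16, DSP, the desmosome plaque protein (50.8, 20.2, 31.4 and 31.5 CPM in S4, against 122, 96.2, 235 and 262), and KRT19 and SPINT2, whose ends share over 10% of words with other genes. DSP and KRT19 were not 2-fold below S2 alone in every library (smallest differences -0.72 and -0.21). KRT8, the keratin of simple epithelia, behaved otherwise: S4 had 574, 796, 244 and 128 CPM, against 601, 794, 1004 and 577. The sides were level at T10 and T20, where the other side is S2 and S3, and apart at T40 and T80, where it is S3 alone. The change of the other side and the change of dose cannot be told apart here. Of 8 Müllerian and serous genes, 4 were lower and 0 higher, namely SPP1, KLK6, BCAM and CLU (median -1.28). KLK6 and BCAM were not 2-fold below S2 alone in every library (smallest differences -0.26 and -0.58). PAX8 had 83.9, 125, 166 and 156 CPM in S4, against 234, 264, 244 and 182, and WFDC2, the secreted ovarian tumour marker HE4, had 517, 594, 1317 and 1052 CPM, against 498, 614, 490 and 198. PAX8 was thus present in S4 throughout but lower than in the other cells of each library. WFDC2 was higher only at the upper pair of doses, where the other side is S3 alone. EPCAM and CDH1 were not analysed here, and values of WT1, SOX17, MECOM and KRT18, also markers of the line, are not given.

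Of 12 measured mesenchymal genes, 3 were higher and 0 lower in all libraries, beside the 1.23% and 1.52% of all genes (ACTA2, TAGLN and TGFBI; median 0.64). VIM, the intermediate filament vimentin, had 2085, 1523, 1908 and 2360 CPM in S4, against 1448, 1251, 1042 and 1198, under 2-fold apart in each library. Of 8 TGF-beta genes, 2 were higher (median 0.83), TGFBI and TGFB2. Of 5 basement membrane genes, COL4A2 was higher (median 1.28), and LAMA4, a laminin chain, had 137, 210, 175 and 181 CPM in S4, against 75.7, 90.7, 21.7 and 20.2. Of 3 measured fibrillar or associated collagens, COL12A1 was higher (median 1.57). Of 11 YAP and TEAD genes, NT5E was higher (median 0.43), and of 12 AP-1 and immediate early genes, 0 were higher or lower in all 4 libraries (median 0.42). Of 9 adhesion molecules, VCAM1 was higher and the integrin chain ITGB8 lower (median -0.23), and of 7 genes of calcium and kinase signalling, PDE1C was higher and 0 were lower (median 0.27).

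Of 5 interferon-stimulated genes, BST2, which tethers budding viruses, was lower with 199, 182, 87.5 and 50.9 CPM in S4, against 552, 508, 369 and 432, and the list's median was -0.80. Of 5 PARP and NAD genes, NNMT was higher and QPRT, an enzyme of NAD synthesis, lower, with QPRT's end sharing 10.6% of words with other genes. PARP1, the target of olaparib, had 159, 92.9, 122 and 164 CPM in S4, against 199, 178, 114 and 105, without a common direction. Of the 13 mitochondrial respiratory genes, 0 passed in all libraries (median -0.42), and of 53 ribosomal protein genes, 0 passed (median 0.45).

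**Figure D3:**
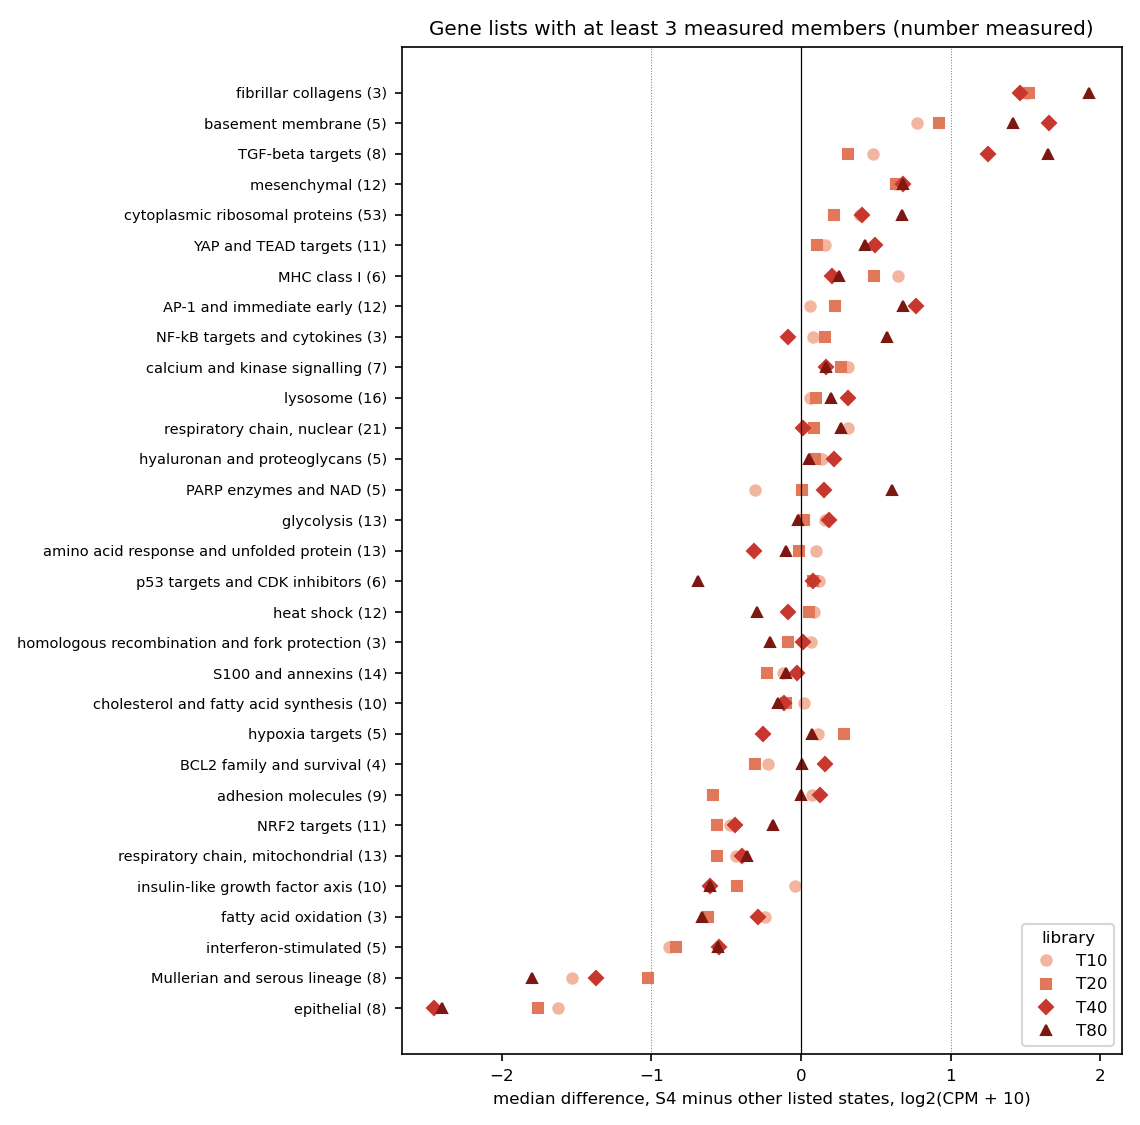
Median difference of each gene list with at least 3 measured members (horizontal axis, S4 minus other listed states, log2(CPM + 10)) in each of the 4 libraries, with the number of measured members in brackets and dotted lines at -1 and 1. Epithelial genes lie furthest to the left (median over libraries -2.06), while most lists lie between the dotted lines. The list labelled fibrillar collagens, which also holds COL12A1 and COL6A1, lies furthest to the right (1.57).

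Markers of other cell types were summed beside these values. Of 12 fibroblast markers, 4 were analysed (PDGFRA, PDGFRB, COL1A1 and THY1), at 70.2 to 1902 CPM in S4, against 52.4 to 633 in S2 and S3 of the same libraries and 48.3 to 727 in the listed states of other libraries. COL1A1 at T10 was the highest value of a single marker in S4. Of 10 endothelial markers, 6 were analysed, at 109 to 247 CPM, against 189 to 583 and 119 to 643, and of 15 immune markers, CD68 alone, at 0 to 4.75 CPM, against 0 to 4.03 and 0 to 24.9. Of 10 keratinocyte markers, 3 were analysed, at 79.5 to 117 CPM, against 105 to 774 and 58.2 to 202. The part of such markers in the differences was not tested. With mitochondrial and ribosomal protein genes left out of the total, 44 genes were higher and 56 lower in all 4 libraries, among them 36 of the 38 and all 47.

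The pattern was also seen cell by cell. Each cell was thinned to 1000 UMIs, which left out 22, 2, 28 and 2 shallower S4 cells, 75 and 27 S2 cells and 17, 7, 17 and 2 S3 cells. Then the median S4 cell held 16, 15, 14 and 10 UMIs of the 38 higher genes at T10, T20, T40 and T80, against 4 and 5 in S2 and 3, 2, 4 and 2 in S3. Of the 47 lower genes, it held 3, 2.5, 2 and 2, against 10 and 9 in S2 and 16, 14, 11 and 12 in S3. More UMIs of the higher than of the lower set were held by 94.8%, 97.2%, 93.4% and 89.1% of S4 cells. The same was true of 56.5% of S2 cells at 2.5 µM and 38.2% at 5 µM, of 9.46% and 21.5% of S2 cells at T10 and T20, and of 29.2% and 49.3% of S5 cells at 160 and 320 µM. The median S2 cell of 2.5 µM held 11 UMIs of the 38 genes, above the 10 of S4 at T80, and the sum over these genes was 11900 CPM in S2 of 2.5 µM. These genes were chosen on the same cells, so the split describes S4 and does not test it.

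**Figure D4:**
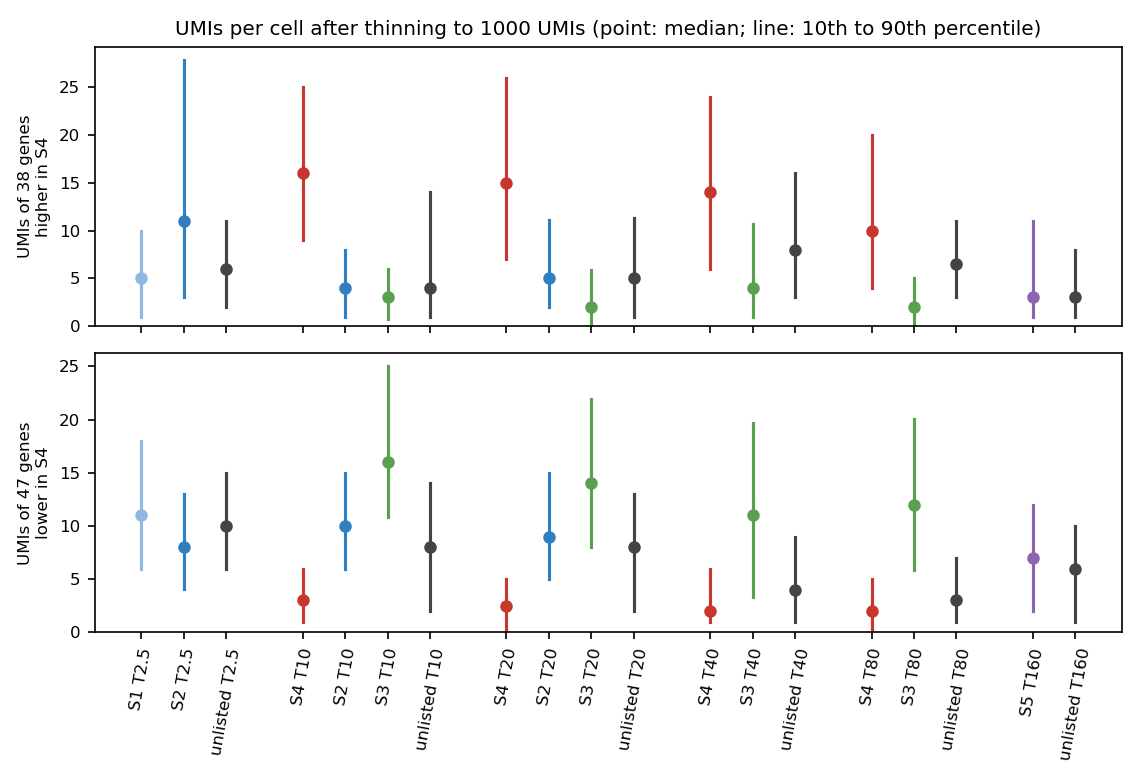
UMIs per cell of the 38 genes higher in S4 (top) and the 47 lower (bottom) after each cell was thinned to 1000 UMIs, as median (point) and 10th to 90th percentile (line), by state and library. S4 medians of the higher set lie at 16, 15, 14 and 10 UMIs, and S2 cells of 2.5 µM, with a median of 11, lie above S4 of T80 and below the other S4 medians.

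Set against all 14 other state-by-library sums, from untreated cells to 320 µM, 71 of 6099 measured genes had their lowest S4 level above every other sum (1.16%), and 68 had their highest S4 level below every other sum (1.11%). VCAM1 was at 0 CPM in C, S1, S5 and S2 of 2.5 and 5 µM, and at most 14.6 CPM elsewhere, against at least 77.0 CPM in S4. RGS4 was at least 281 CPM in S4 and at most 78.3 elsewhere. POU3F3, a transcription factor of the nervous system, had 42.0, 40.4, 59.7 and 32.2 CPM in S4, against at most 10.9 elsewhere. PDE5A, the phosphodiesterase of cyclic GMP, had 86.2, 60.6, 32.0 and 24.1 CPM, against at most 9.05. IGFBP6, which binds insulin-like growth factors, and RGS2, another brake on G-protein signals, were also above every other sum. A gene at 0 in a whole library may have been seen in under about 1% of its cells, since each library lists genes only from that share on (0.957% to 0.976% of cells in those examined), so no fold is given against it.

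Among genes low in S4, CDKN2A, which codes for the cell-cycle inhibitors p16 and ARF, had 219, 76.7, 39.3 and 30.2 CPM in S4, against 311 to 699.6 in S2 and S3, 585 and 331 in S5 and 1100 in C. CP, the copper protein ceruloplasmin, had 0, 0, 4.72 and 4.07 CPM in S4, against 17.8 to 158 elsewhere. UCHL1, a neuronal deubiquitinase, had 347, 412, 494 and 354 CPM, against 787 to 1419 elsewhere. PNKD, S100A16, a calcium-binding protein, and DACH1 were also below every other sum. These 3 had at most 24.3, 27.8 and 33.0 CPM in S4, against at least 51.4, 53.02 and 52.4 elsewhere.

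Other genes of S4 were shared with earlier or later states. ACTA2 had 2388 and 1936 CPM and TAGLN 3953 and 1704 CPM in S2 of 2.5 and 5 µM, with ACTA2 of both and TAGLN of 2.5 µM above every S4 sum. By contrast, S2 of T10 and T20 had 99.5 and 444 CPM of ACTA2, and S5 208 and 169. CD44 and PDE1C were also high in S5, at 154 and 301 CPM for CD44 and 116 and 143 CPM for PDE1C at 160 and 320 µM. Over the whole transcriptome, S4 of different libraries lay 0.397 to 0.598 apart (root mean square log2 difference), against 0.604 and 0.638 from S2 and 0.599 to 0.811 from S3 of the same library, and 0.896 to 0.949 from C. S4 of T80 lay 0.648 and 0.635 from S5 of 160 and 320 µM. Such distances hold counting noise too, more of it in the smaller sums. The genes most like the mean of the 4 given markers over the 18 sums were TPBG, RALGAPA2, TAOK3, ZC2HC1A and STX8, with r of 0.947, 0.941, 0.938, 0.936 and 0.926. These sums share libraries and depth, and r is given as a description.

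The second question was how S4 differed between T80 and T10. Over 4048 measured genes, 103 were at least 2-fold higher at T80 (2.54%) and 360 lower (8.89%), and the median gene differed by -0.22. With TMM scaling, which moves that median to -0.04, 172 were higher and 236 lower, so the size of the excess of lower genes depends on the scaling. All 103 and 236 of the 360 were among them. All 3 steps of dose ran in 1 direction for 49 of the higher (1.21%) and 154 of the lower genes (3.8%). S3, which is in the same 4 libraries and so shares any difference between them, was set beside S4. Over all 4048 genes, 140 were at least 2-fold higher in S3 at T80 and 342 lower, on the log2(CPM + 10) scale. Of the 103, 43 were also at least 2-fold higher in S3, 60 were within 2-fold and 0 were lower. Of the 360, 132 were also lower in S3, 227 were within 2-fold and 1 was higher.

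Genes lower at T80 included the collagens COL1A1, COL3A1 and COL5A2 and genes of other roles. COL1A1, the main fibrillar collagen, had 1732, 198, 16.2 and 3.73 CPM in S4 at T10, T20, T40 and T80, a 464-fold lower level at T80 (258 to 934), and 241, 29.6, 7.24 and 0 CPM in S3. COL3A1 had 1909, 800, 453 and 181 CPM in S4, 10.5-fold lower at T80 (9.43 to 11.7), and 226, 51.3, 105 and 40.3 in S3. SULF1, which trims heparan sulfate outside the cell, had 1100, 687, 228 and 62.1 CPM in S4 and 436, 101, 95.9 and 4.03 in S3. These 3 genes were lower at T80 in both states. THBS1, which activates latent TGF-beta, had 274, 166, 120 and 25.1 CPM in S4, and SERPINH1, the collagen chaperone, 1754, 977, 567 and 310. CAV1, the coat protein of caveolae, had 961, 691, 318 and 151 CPM in S4, against 172, 243, 154 and 117 in S3. CDKN2A was 7.25-fold lower at T80 in S4 (5.39 to 9.76), with 476, 345, 311 and 452 CPM in S3, and BCAT1, which starts the breakdown of branched-chain amino acids, was 9.66-fold lower (8.64 to 10.8), with 1216, 1323, 771 and 762 CPM in S3. For CAV1, CDKN2A and BCAT1, S3 stayed within 2-fold. PRSS35, a protease-like secreted protein, and COL5A2 complete the named genes of this direction.

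Genes higher at T80 included VCAN, SPOCK1 and FAM107A. VCAN, a hyaluronan-binding proteoglycan, had 8.84, 40.4, 99.0 and 171 CPM in S4 at T10, T20, T40 and T80, 19.3-fold higher at T80 (7.49 to 71.1), and 12.5, 0, 18.1 and 8.07 in S3. SPOCK1, another proteoglycan, had 13.2, 92.9, 149 and 154 CPM in S4 and 12.5, 11.8, 32.6 and 28.2 in S3. FAM107A, an actin-associated stress protein, had 13.2, 105, 263 and 273 CPM in S4 and 3.13, 13.8, 56.1 and 48.4 in S3. With 10 CPM added, VCAN and SPOCK1 were within 2-fold in S3, whereas FAM107A was at least 2-fold higher there too. PHLDA1, which is induced by growth factor signals, had 55.2, 190, 301 and 409 CPM in S4 and 47.0, 37.5, 174 and 165 in S3. SLPI, a secreted inhibitor of neutrophil elastase, had 157, 291, 590 and 802 CPM in S4 and 993, 2250, 1053 and 702 in S3. SVIL, the actin-binding supervillin, had 356, 428, 832 and 1101 CPM in S4 and 345, 223, 326 and 306 in S3. For SLPI and SVIL, S3 was within 2-fold. CYP1B1, a cytochrome that oxidises xenobiotics, was 4.20-fold higher at T80 (3.22 to 5.58), and PRKCB 3.87-fold (2.28 to 7.15). CA12, a carbonic anhydrase, SGCD and DST, which link the cytoskeleton to membrane or matrix, and RPS4X, a ribosomal protein, complete the named genes.

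**Figure D5:**
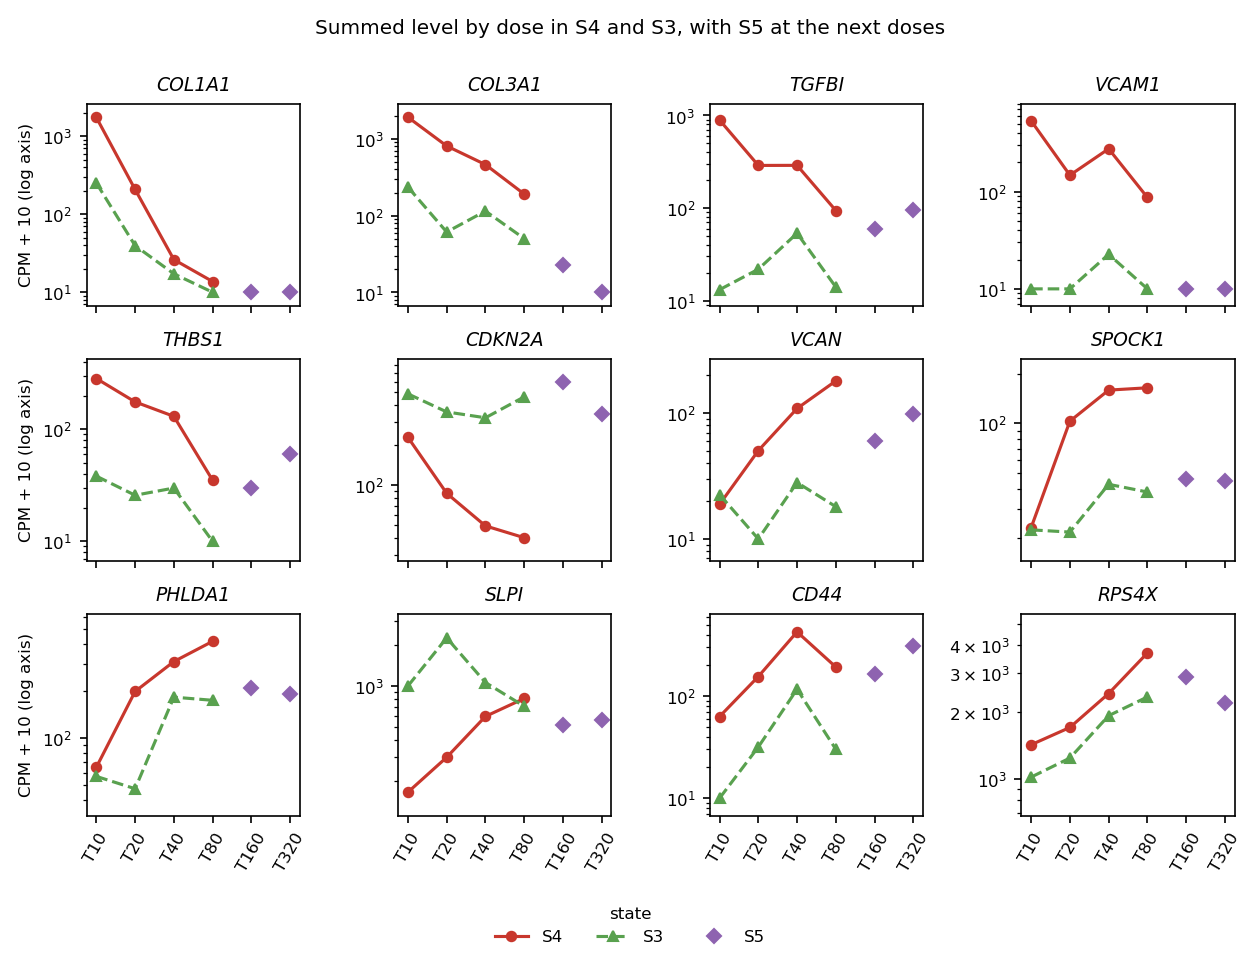
Summed level (CPM + 10, log axis) of 12 genes by dose in S4 (red, solid) and S3 (green, dashed) from T10 to T80 and in S5 at T160 and T320 (diamonds), with 1 sum per point. COL1A1 and COL3A1 are lower with dose in S4 and S3, while CDKN2A is lower and VCAN and SPOCK1 are higher in S4 with S3 within 2-fold on this CPM + 10 scale.

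By list, 10 of 12 measured TGF-beta genes were at least 2-fold lower at T80 and 0 higher (median -1.37), against 8.89% lower, 2.54% higher and a median of -0.22 over all genes. In S3, 3 of them were lower (median -0.13), against 342 of all 4048 genes lower, 140 higher and a median of -0.15. The sum over this list had no single direction, with 8750, 5985, 11130 and 5373 CPM in S4 of T10, T20, T40 and T80 and 9048 and 10090 CPM in S5. Of 8 fibrillar or associated collagens, among them COL6A3, 6 were lower and 0 higher (median -2.32), with 3 lower and -0.36 in S3. Of 14 mesenchymal genes, 7 were lower (median -1.06), with 3 lower, 1 higher and -0.39 in S3. Of 11 interferon-stimulated genes, 7 were lower (median -1.07), with 5 lower and -0.96 in S3. IFI27 had 110, 254, 22.5 and 8.82 CPM in S4. Of 8 hyaluronan and proteoglycan genes, 4 were higher and 2 lower (median 0.55); the higher ones were VCAN, SPOCK1, CD44 and HAS2, the hyaluronan synthase (39.8, 28.3, 107 and 134 CPM). CD44 itself was highest at T40. Of 53 ribosomal protein genes, 21 were higher and 0 lower (median 0.84), with 16 higher and 0.66 in S3, and the 10 whose ends share under 10% of words had a median of 0.89. The difference between S4 and S3 in these lists was not tested.

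The 38 genes higher in S4 were also followed over dose. Of them, VCAM1, TGFBI, SULF1, NNMT, TGFB2, COL4A2 and LOXL1 were at least 2-fold lower at T80 than at T10 in S4 and CD44, NT5E and PPP1R3C at least 2-fold higher, so 7 were lower and 3 higher, beside 8.89% and 2.54% of all genes, and the other 28 were within 2-fold. VCAM1 was 6.80-fold lower (5.64 to 8.20) and TGFBI 10.5-fold lower (8.94 to 12.4), while ACTA2 differed by -0.30 and PDE1C by 0.45 on the log2 scale. Summed over the 38 genes, S4 had 16410, 16000, 14850 and 11280 CPM. Of the 132 genes lower with dose whose ends share under 10% of words, both S5 sums were below S4 of T10 for 125 and at or below S4 of T80 for 42. Of the 32 such genes higher with dose, both S5 sums were above S4 of T10 for 28 and at or above S4 of T80 for 5. These genes were picked by their S4 levels at T10 and T80, so the counts against T10 were largely set by that choice. The same shares over all genes were not counted, and no trend into S5 is read from them.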

How the data were processed

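Raw UMI counts per gene and cell were deposited by the authors for 10 libraries, with a cell table that gives state, UMI and gene counts and the mitochondrial share, a fraction, in that deposited table. The submitters' processing notes name hg38, GRCh38 and Seurat 2.3.2; the aligner, annotation and cell filters were not given in the sources used here. All 8240 listed cells had equal UMI totals in table and matrix, T40 cells after their names were aligned. No further filter and no doublet caller was run.

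Counts of each state and library were summed and scaled to 1000000 UMIs (CPM), and differences are of log2(CPM + 10). With 1 library per dose no test was run. Poisson and binomial 95% intervals are exact. The members, gene lists and rules were chosen with earlier results of these data known. Named genes were the 15 highest and 10 lowest by smallest within-library difference, the 12 highest and 10 lowest with dose in 1 direction, 6 above and 6 below every other state, the 5 most like the markers and up to 3 members of each of 43 lists, not all printed. SMAD3, TGFB1I1, LOXL1, HAS2, QPRT, BCAM and genes next to the limit were named after their values were seen. VIM, KRT19, SPINT2, PCDHB16 and LYPD1 were also named outside these rules. Sharing was the share of 31-base words in the last 500 bases found in another GENCODE 29 gene. Alternatives were TMM (edgeR 4.0.16) and DESeq2 1.42.0 size factors, other totals, other added CPM and minimums, the 5% of cells with most UMIs left out, thinning to 1000 UMIs, means of cells, each other state alone and each library left out. Scripts (Python 3.11.15, R 4.3.3) were tested on simulated data.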

Additional observations from a re-analysis of the deposited data

Results flagged for a closer look

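Cells that the table does not list, which enter no comparison of states, also carried genes of S4. The 38 genes higher in S4 summed to 6409.3 CPM in unlisted cells of T10, 6040.6 in T20, 9466.2 in T40 and 7167.8 in T80, below S4 of the same library (16410, 16000, 14850 and 11280 CPM). In libraries without S4, unlisted cells had 3599 CPM untreated, 3851 at 1 µM, 6220 at 2.5 µM, 7200 at 5 µM, 4346 at 160 µM and 5224 at 320 µM, so T10, T20 and T80 lay within the range of those libraries and T40 above it. After thinning to 1000 UMIs, unlisted cells held a median of 4, 5, 8 and 6.5 UMIs of these genes, and 30.9%, 30.5%, 74.5% and 72.1% held more of the higher than of the lower set. Unlisted cells also had 3587 to 5846 CPM of G2/M transcripts, against 489 to 711 in S4, whose cells come from a list labelled g1. Whether any unlisted cell would be S4 is not given by the labels.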

How the results depend on the processing

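Within library, 38 genes higher and 47 lower became 16 and 19 with 50 CPM added, 12 and 12 with at least 200 CPM required, 63 and 92 with no minimum, 90 and 98 against S2 alone (T10 and T20) and 72 and 92 against S3 alone. Leaving out 1 library gave 47 to 57 higher and 56 to 71 lower, with 71 when T10 was left out. TMM, DESeq2, other totals, 1 CPM added, deepest cells left out, thinning and means of cells gave 36 to 49 higher and 37 to 57 lower. With thinning, 25 of the 38 and 32 of the 47 were among those called.

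For T80 against T10, 103 higher and 360 lower became 172 and 236 with TMM, 54 and 128 with 50 CPM added, and 52 and 119 with at least 200 CPM. Higher and lower were 166 and 240 with DESeq2 size factors, 212 and 266 without mitochondrial and ribosomal protein genes, and 263 and 540 with no minimum. They were 161 and 536 with thinning, 169 and 299 with T20 as the low end, and 84 and 152 with T40 as the high end. With genes sharing over 10% left out, chosen after seeing the data, 175 were higher and 306 lower. Lower genes outnumbered higher ones in each setting tried. The shares of S4 among all cells were 9.87%, 5.06%, 33.6% and 37.0% in place of 19.0%, 11.6%, 75.9% and 92.1%. Of 744 values of 49 single genes, 598 moved less than their counting interval and 145 more. Of these 49 genes, FLG alone, among values past 2-fold, changed sign (0.59 against S2 alone). Among the 47 lower genes, TIE1 and LYPD1, which are not of the 49, also changed sign. Their differences from S2 alone reached 1.15 and 0.09, toward higher in S4. For PRKCB the value followed was its highest over the libraries, -0.27. Its lowest was -1.73, so PRKCB was not within 2-fold in every library. That highest value was 1.22 against S2 alone, 0.52 with thinning and 0.26 with means of cells. The lowest FOSB value, -0.39, was 0.05 without T20. The causes were not tested.

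No replicate block was fitted, since each dose has 1 library; S4 and the other states were already set against each other within each library, and these 4 differences were not tested because the states were made from the same cells. S4 of T20 has 74 cells and S3 of T80 has 72, so folds resting on them are the least precise. Doublets, and free RNA carried into droplets, were not measured.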
